A study of Arabidopsis thaliana with 18 samples.

Results

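Shoots of Arabidopsis thaliana Col-0 grown with ACC were set against shoots grown with KMBA, each compound at 100 nM on medium with 100 mM NaCl. The comparison uses the 3 ACC shoot and the 3 KMBA shoot libraries, 6 of the 18 libraries of the series, and covers the 15163 genes, of 27371 in the table, that reached 1 FPKM in at least 3 of the 6. FPKM, a fragment count scaled by transcript length and by the mapped fragments of the library, is a value per length, so levels of different genes can be set side by side. All plants germinated for 5 days without salt and then grew for 16 days on the salt plates, with 6 seedlings per plate, and were harvested at 21 days of age. The other shoot groups were shoots colonised by SA187, an Enterobacter strain isolated from a desert plant that promotes growth on salt, and shoots with neither bacterium nor compound (WT), 3 libraries each. Roots were sequenced from ACC and KMBA plants, 3 libraries each. Every group carried the salt, so no comparison here has an unsalted reference, and ethylene itself was not measured in these libraries. Polyadenylated RNA was read, and the labels do not say whether a library was 1 plant or the plants of a plate.

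Ethylene is a gaseous hormone that plants make from methionine through S-adenosylmethionine and ACC (1-aminocyclopropane-1-carboxylic acid), the compound that ACC oxidases turn into ethylene. KMBA (2-keto-4-methylthiobutyric acid) is the keto acid of methionine, is released by SA187, and was tested by the study as a further source of ethylene, with ACC as the positive control. The same keto acid is an intermediate of the plant's own methionine salvage, and it is what BCAT4 makes from methionine in the opening step of aliphatic glucosinolate synthesis. Ethylene is bound by receptors of the endoplasmic reticulum that hold the kinase CTR1 active. Once they bind it, EIN2 is released from CTR1 and EIN3 and EIL1 accumulate and switch on target genes, among them the F-box gene EBF2, several receptor genes and ERF transcription factors, while EBF1 and EBF2 proteins send EIN3 for degradation. In leaves ethylene acts together with jasmonate on some defense genes and against it on others, with ERFs such as ORA59 at the meeting point.

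The 2 compounds separated the shoots along the leading principal component, which held 48.0% of the variance, with ACC replicates 1, 2 and 3 at -24.4, -12.9 and -21.5 and KMBA replicates 1, 2 and 3 at 20.6, 18.2 and 20.1. Across genes, replicates correlated at Pearson r from 0.979 to 0.986 within ACC and from 0.982 to 0.990 within KMBA, against 0.962 to 0.978 between the compounds (genes are not independent replicates). FPKM keeps no read totals, but the steps between the lowest values put the depth of the ACC libraries at 0.865, 0.697 and 0.735 and of the KMBA libraries at 0.895, 1 and 0.763 of that of KMBA replicate 2. ACC replicate 1 and KMBA replicates 1 and 2 were sequenced in pool 1, and ACC replicates 2 and 3 and KMBA replicate 3 in pool 3, so each pool held both compounds. As a check of the organ, none of 13 root markers and none of 4 seed storage genes reached the filter, the highest root marker value being 0.179 FPKM. Of the vascular markers 6 of 7 were tested and none was called, against 1.21% of all tested genes, with summed levels of 158 to 194 FPKM with ACC and 147 to 173 FPKM with KMBA. Of the epidermal, guard cell and trichome markers 14 of 16 were tested and none was called, against the same share. Their summed levels were 333 to 445 FPKM with ACC and 378 to 411 FPKM with KMBA. At an adjusted p under 0.05 alone 2 of the 14 were lower with ACC, against 1.97% of all tested genes. Without ACC replicate 3, 1 was called lower. In bulk shoots, fewer cells of a type and less RNA per cell cannot be told apart.

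ACC and KMBA shoots differed in 184 genes at an adjusted p under 0.05 and a fold over 2 (limma on log2 of FPKM plus 1, 2-sided, Benjamini-Hochberg over all tested genes), 1.21% of those tested. Of these, 133 were higher with ACC (0.877%) and 51 were lower (0.336%), and in all 184 the 3 ACC libraries lay wholly on one side of the 3 KMBA libraries, as they did in 32.0% of all tested genes. Of the rises, 23 reached the filter only through the ACC libraries, among them PR1, PROPEP3, TAT3, GolS3, ETR2, ORA59 and AT4G12490. These 23 genes could be tested only as rises, and no called fall reached the filter only through the KMBA libraries. With a filter of 5 FPKM, 69 genes were called higher and 45 lower. At the adjusted p alone 966 genes (6.37%) differed, of which 667 were higher (4.4%) and 299 lower (1.97%) with ACC. Genes of ethylene feedback and response, salicylate-linked and pattern-triggered defense and dehydration protection were among the rises, and genes of jasmonate synthesis and aliphatic glucosinolate synthesis among the falls. The lists of methionine and S-adenosylmethionine, methionine salvage and ethylene synthesis held no called gene in this fit. With 1.21% of all genes called, lists of this size hold few or none by that share alone. Over all tested genes 62.7% of the differences were positive and the median was 0.07 on the log2 scale, so sign counts within a list are read beside that share. Without ACC replicate 1 the count was 109 genes, with 70 higher and 39 lower, and 100 of the 109 were among the 184. Of the 184 called genes, 51 belonged to 1 of the 47 lists examined.

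**Figure D1:**
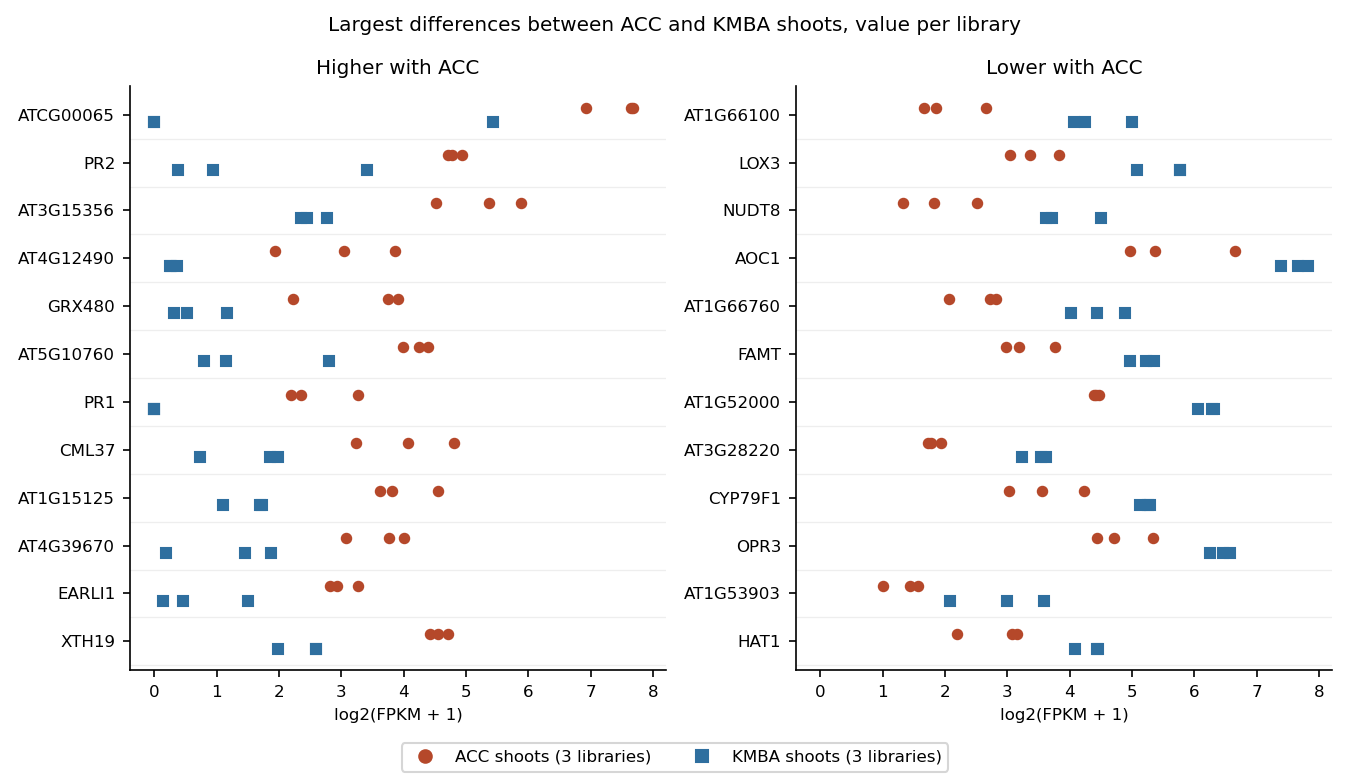
Values per library, as log2 of FPKM plus 1, of the 12 largest rises (left) and 12 largest falls (right) between ACC and KMBA shoots, with ACC libraries as circles and KMBA libraries as squares, 3 of each per gene. No circle overlaps the squares of its gene, which was a condition of the choice. In PR2 (9.63 FPKM) and AT5G10760 (5.98 FPKM) 1 KMBA library lies nearer to the ACC libraries than the others.

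**Figure D2:**
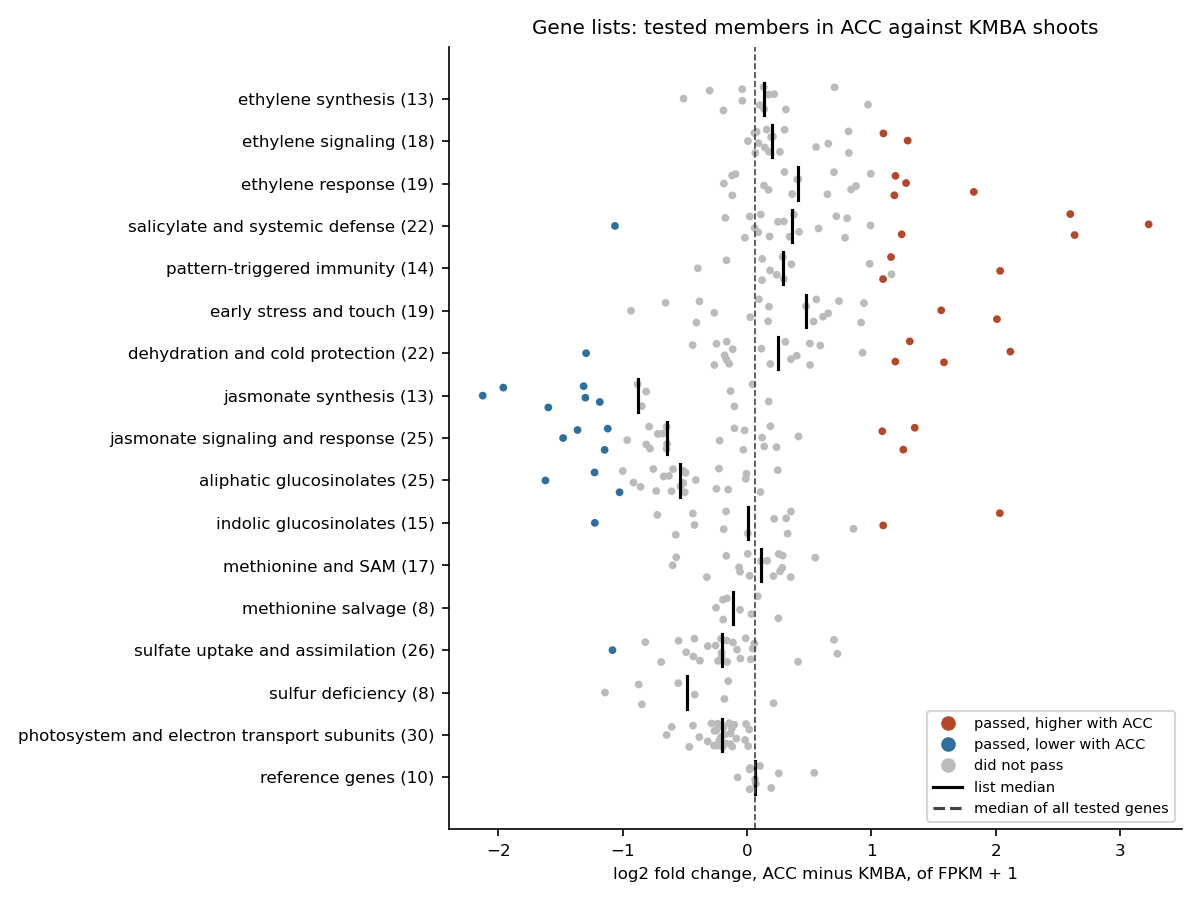
Log2 difference (ACC minus KMBA, FPKM plus 1) of every tested member of 17 lists, 1 point per gene, with the number tested in parentheses, a bar at each list median and a dashed line at the median of all tested genes (0.07). The 6 genes of jasmonate synthesis that passed all lie on the lower side, the 4 of ethylene response all on the higher side, and methionine and SAM and methionine salvage have no point that passed.

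The receptor ETR2 and the F-box gene EBF2 were the signaling genes called higher with ACC than with KMBA. Of 18 tested signaling genes, out of 19 listed, these 2 were called higher and none lower, against a background of 0.877%, and 6 passed the adjusted p alone, where the background was 4.4%. All 18 differences were positive, as were 62.7% over all genes, with a list median of 0.20 on the log2 scale that became 0.12 with median-ratio scaling. EBF2, which targets EIN3 and EIL1 for degradation and is itself a target of EIN3, had 48.9, 63.95 and 50.5 FPKM with ACC, against 23.5, 26.2 and 24.5 FPKM with KMBA. Every ACC library was above every KMBA library, and the difference was 1.10 on the log2 scale (SE 0.12, adjusted p = 0.00556). ETR2, a receptor gene known to be induced by ethylene, had 3.06, 3.49 and 1.88 FPKM with ACC, against 0.459, 0.529 and 0.599 FPKM with KMBA (log2 difference 1.29, SE 0.16, adjusted p = 0.00633). Its KMBA libraries were all below 1 FPKM, so ETR2 could be tested only as a rise, and without any 1 ACC library it did not reach the filter. The other ethylene-inducible receptors, ERS1 and ERS2, were higher at an adjusted p of 0.0154 and 0.00632 but under the 2-fold limit. ERS1 had 21.1, 18.4 and 16.2 FPKM with ACC, against 8.55, 10.4 and 11.4 FPKM with KMBA, and ERS2 had 3.59, 3.89 and 3.01 FPKM with ACC, against 1.48, 1.66 and 1.48 FPKM with KMBA. Neither gene's groups overlapped.

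The receptors ETR1 and EIN4, which are not known for induction by ethylene, differed by 0.18 (95% interval -0.03 to 0.38) and 0.26 (0.06 to 0.47) on the log2 scale and did not pass. CTR1, the kinase that keeps the pathway off, had 9.41, 7.79 and 8.19 FPKM with ACC, against 4.99, 5.60 and 5.72 FPKM with KMBA, a difference of 0.56 at an adjusted p of 0.0215, below the 2-fold limit. EIN2, the membrane protein that carries the signal on, differed by 0.21 (-0.04 to 0.45, adjusted p = 0.259). Of the transcription factors at the end of the chain, EIL1 was higher with ACC below the 2-fold limit, at 69.3, 72.8 and 75.6 FPKM, against 43.3, 48.0 and 46.1 FPKM with KMBA (log2 difference 0.65, adjusted p = 0.0088). EIN3 itself, whose activity is set mainly by protein stability, differed by 0.19 (-0.03 to 0.41) and did not pass, nor did SLIM1, the EIN3 relative that governs sulfur deficiency responses (0.16, -0.04 to 0.36). EBF1, the partner of EBF2, had 23.6, 24.9 and 26.99 FPKM with ACC, against 24.7, 24.8 and 21.2 FPKM with KMBA, and its groups overlapped. RTE1, which acts with the receptor ETR1, differed by 0.14 (-0.05 to 0.33). Without ACC replicate 1 or 3, or with a filter of 5 FPKM, 1 signaling gene was called, and without ACC replicate 2 or with a pseudocount of 5 none was.

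**Figure D3:**
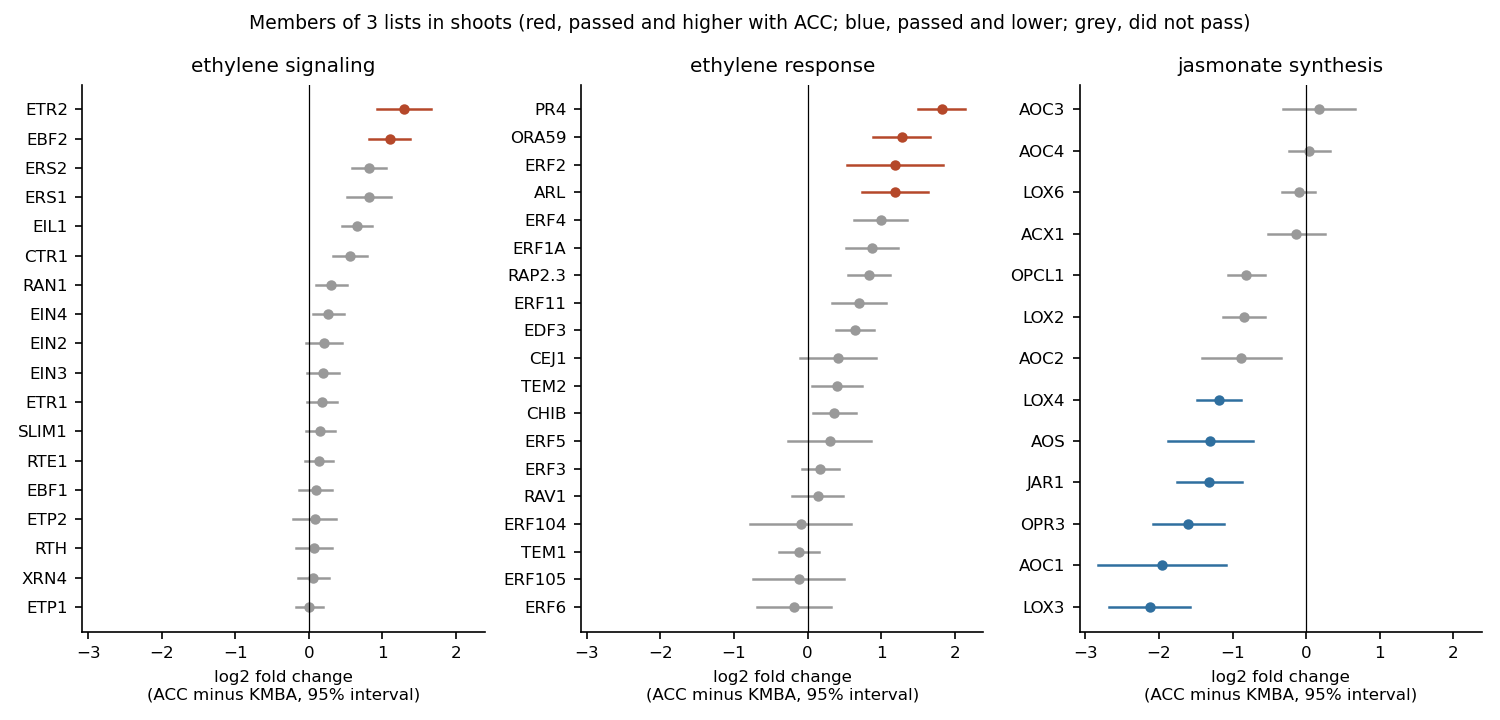
Difference between ACC and KMBA shoots on the log2 scale with its 95% interval for each tested gene of ethylene signaling, ethylene response and jasmonate synthesis (3 libraries per group), with a line at 0. PR4 (1.82), ETR2 (1.29) and EBF2 (1.10) are among the genes that passed on the higher side, and LOX3 (-2.13) and AOC1 (-1.96) lie farthest to the lower side.

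Of 19 tested ethylene response genes, out of 27 listed, 4 rose and none fell with ACC, against backgrounds of 0.877% and 0.336%, and the median difference was 0.41. PR4, a chitin-binding defense protein used as an output of ethylene, had 14.3, 14.4 and 14.8 FPKM with ACC, against 2.63, 3.32 and 4.35 FPKM with KMBA. The ACC libraries lay close together and all were above the KMBA libraries, by 1.82 on the log2 scale (SE 0.14, adjusted p = 0.00232). ORA59, the ERF that joins ethylene and jasmonate signals, had 3.03, 3.98 and 2.07 FPKM with ACC, against 0.720, 0.481 and 0.689 FPKM with KMBA (log2 difference 1.28, SE 0.17, adjusted p = 0.00864). ORA59 reached the filter only through the ACC libraries, so it could be tested only as a rise. The other called genes, chosen after their values were seen, were ARL, a gene of cell expansion (5.45, 6.95 and 3.58 FPKM with ACC, against 1.39, 1.70 and 2.09 FPKM with KMBA), and ERF2, an activating ERF (31.4, 25.03 and 18.4 FPKM with ACC, against 15.4, 6.56 and 9.99 FPKM with KMBA). ERF2 was at the edge of the test (log2 difference 1.19, adjusted p = 0.0476) and was called in only 1 of the 6 fits that left out a library. Below the 2-fold limit, ERF4, a repressing ERF, RAP2.3, an ERF of the low oxygen group, and, chosen after their values were seen, ERF1A and EDF3 were higher with ACC, by 1.00, 0.84, 0.88 and 0.65 on the log2 scale, at adjusted p of 0.0147, 0.0113, 0.0203 and 0.0181. RAP2.3 was the most abundant of these, with 98.4, 105 and 86.6 FPKM with ACC, against 54.7, 46.5 and 60.0 FPKM with KMBA. Without ACC replicate 1 or with a pseudocount of 5 the list held 1 called gene and without ACC replicate 2 or KMBA replicate 2, without the filter or with one of 5 FPKM it held 2, part of which follows from ORA59 not reaching the filter once an ACC library is left out.

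None of 13 tested genes of ethylene synthesis, out of 19 listed, was called, against 1.21% of all genes. Differences ran from -0.51 to 0.97, with a median of 0.13 on the log2 scale. ACS2, an ACC synthase, had 1.57, 1.15 and 2.75 FPKM with ACC, against 0.0572, 0.586 and 0.636 FPKM with KMBA, a difference of 0.97 at an adjusted p of 0.0485. Its groups did not overlap and the difference was under the 2-fold limit. ACO4, an ACC oxidase, had 101, 106 and 122 FPKM with ACC, against 103, 113 and 123 FPKM with KMBA. Its groups overlapped almost wholly, and the 95% interval of the difference ran from -0.29 to 0.21. The synthases ACS6 and ACS8 differed by 0.31 (0.00 to 0.62) and -0.51 (-0.92 to -0.10) and did not pass.

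The jasmonate synthesis genes LOX3, LOX4, OPR3, JAR1, AOC1 and AOS were called lower with ACC. Jasmonate is made from linolenic acid by 13-lipoxygenases (LOX), allene oxide synthase (AOS), allene oxide cyclases (AOC) and the reductase OPR3, and is made active by JAR1, which joins it to isoleucine. Of 13 tested genes, out of 15 listed, 6 fell and none rose, against backgrounds of 0.336% and 0.877%. At the adjusted p alone 8 were lower, where the background was 1.97%, and the median difference was -0.88. LOX3 had 9.26, 13.3 and 7.28 FPKM with ACC, against 53.7, 32.8 and 53.5 FPKM with KMBA. No ACC library reached the lowest KMBA library, and the difference was -2.13 on the log2 scale (SE 0.24, adjusted p = 0.00556). LOX4, which works with LOX3, had 11.5, 9.05 and 13.3 FPKM with ACC, against 27.1, 25.9 and 26.96 FPKM with KMBA (-1.19, SE 0.13, adjusted p = 0.00556). OPR3 had 20.8, 39.3 and 25.1 FPKM with ACC, against 86.8, 74.9 and 94.5 FPKM with KMBA (-1.60, SE 0.21, adjusted p = 0.00864), and JAR1, chosen after its values were seen, had 18.4, 24.02 and 14.7 FPKM with ACC, against 51.04, 38.7 and 55.8 FPKM with KMBA (-1.32, adjusted p = 0.0113). LOX3, LOX4, OPR3 and JAR1 were called whichever of the 6 libraries was left out.

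The remaining called genes, AOC1 and AOS, had a wider spread with ACC. AOC1 had 30.3, 100.1 and 40.4 FPKM with ACC, against 203, 167 and 225 FPKM with KMBA (-1.96, SE 0.38, adjusted p = 0.0258), and AOS, chosen after its values were seen, had 97.6, 216 and 125 FPKM with ACC, against 331, 328 and 367 FPKM with KMBA (-1.30, adjusted p = 0.0271). ACC replicate 2 was the highest ACC library for both and still below every KMBA library, and each call held in 1 of the 6 fits that left out a library, the one without ACC replicate 2. Leaving out any library other than ACC replicate 2 gave 4 called synthesis genes. LOX2, the abundant lipoxygenase of wounded leaves and also chosen after its values were seen, had 349.9, 462 and 382 FPKM with ACC, against 748, 691 and 698 FPKM with KMBA, a difference of -0.85 at an adjusted p of 0.0113 that stayed under the 2-fold limit. OPCL1, a ligase that activates the precursor for chain shortening, was also lower under that limit (-0.81, adjusted p = 0.00864). The cyclases AOC1, AOC2 and AOC3 are close relatives in tandem, so reads may have been split between them. AOC2 had 284, 531 and 453 FPKM with ACC, against 713, 655 and 917 FPKM with KMBA (-0.88, adjusted p = 0.0643), and AOC3 had 5.26, 2.75 and 3.64 FPKM with ACC, against 2.99, 2.54 and 4.37 FPKM with KMBA (0.17, adjusted p = 0.641), and neither passed.

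Jasmonate signaling and response genes moved both ways. Of 25 tested genes, out of 30 listed, 3 rose and 4 fell with ACC, against 0.877% and 0.336% of all genes, and the median difference was -0.64. There were 2 rises and 2 falls when the spread was estimated over all 4 shoot groups, and none of either with a pseudocount of 5. JAZ proteins repress jasmonate responses, and their genes are themselves induced by the hormone. JAZ1 had 27.5, 17.1 and 19.3 FPKM with ACC, against 8.41, 9.19 and 10.4 FPKM with KMBA (1.09, adjusted p = 0.0132), whereas JAZ9 had 5.96, 11.2 and 7.13 FPKM with ACC, against 15.9, 19.5 and 42.3 FPKM with KMBA (-1.48, adjusted p = 0.0454). Both were chosen after their values were seen, and the call of JAZ9, with KMBA replicate 3 far above the other KMBA libraries, held in 1 of the 6 fits that left out a library. JAZ7 was lower with ACC below the 2-fold limit (-0.96, adjusted p = 0.00556). JAV1, a VQ protein that represses jasmonate defense, had 8.45, 5.40 and 8.19 FPKM with ACC, against 1.80, 2.50 and 2.43 FPKM with KMBA (1.35, adjusted p = 0.00632), and TAT3, a jasmonate-inducible aminotransferase, had 2.83, 2.08 and 2.36 FPKM with ACC, against 0.435, 0.162 and 0.736 FPKM with KMBA (1.26, adjusted p = 0.00632). TAT3 reached the filter only through the ACC libraries, so it could be tested only as a rise.

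The falls included enzymes that take active jasmonate apart. IAR3 and ILL6, hydrolases of the isoleucine conjugate chosen after their values were seen, had 5.07, 10.98 and 6.73 FPKM with ACC, against 17.9, 14.1 and 20.4 FPKM with KMBA, and 3.45, 7.66 and 5.03 FPKM with ACC, against 12.4, 14.2 and 18.5 FPKM with KMBA. Their differences were -1.15 (adjusted p = 0.0335) and -1.36 (adjusted p = 0.0191), and the call of IAR3 held in 1 of the 6 fits that left out a library. AT5G05600, an oxygenase of the 2-oxoglutarate family in the RefSeq annotation, had 9.63, 13.7 and 10.9 FPKM with ACC, against 23.1, 24.6 and 29.8 FPKM with KMBA (-1.12, adjusted p = 0.00779). VSP2, a classical jasmonate marker chosen after its values were seen, had 109, 107 and 137 FPKM with ACC, against 184, 168 and 211 FPKM with KMBA, lower at an adjusted p of 0.0275 and under the 2-fold limit (-0.68). The number of falls in the list was 2 without ACC replicate 1, 5 without KMBA replicate 1, and 1 without KMBA replicate 2 or 3, and the number of rises was 1 without ACC replicate 1 and 2 without ACC replicate 2 or 3.

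CYP79F1, IPMI-SSU3 and GSTF11 were the genes of aliphatic glucosinolate synthesis called lower with ACC. Aliphatic glucosinolates are sulfur-rich defense compounds made from methionine, which is deaminated by BCAT4, lengthened in the chloroplast, turned into an oxime by CYP79F1 and built up into the glucosinolate core. Of 25 tested genes, out of 27 listed, 3 fell and none rose at a fold over 2, against 0.336% and 0.877% of all genes, and 14 of the 25 were lower at the adjusted p alone, where the background was 1.97%. In 23 of the 25 the difference was negative, whereas 62.7% of all differences were positive, and the list median was -0.54. CYP79F1 had 17.7, 10.7 and 7.14 FPKM with ACC, against 37.4, 33.95 and 37.9 FPKM with KMBA. The KMBA libraries lay close together and all ACC libraries were below them (log2 difference -1.62, SE 0.26, adjusted p = 0.0147). IPMI-SSU3, a small subunit of the isopropylmalate isomerase that lengthens the chain, had 11.1, 8.57 and 6.71 FPKM with ACC, against 22.8, 19.1 and 23.1 FPKM with KMBA (-1.23, adjusted p = 0.00864), and GSTF11, a glutathione transferase of the core pathway, had 1.95, 1.37 and 1.95 FPKM with ACC, against 4.69, 4.13 and 4.95 FPKM with KMBA (-1.03, adjusted p = 0.00556).

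Other members were lower below the 2-fold limit. BAT5, which carries keto acids into the chloroplast, had 1.54, 1.39 and 1.34 FPKM with ACC, against 2.90, 4.07 and 4.74 FPKM with KMBA (-1.0, adjusted p = 0.0105). FMOGS-OX3, which oxygenates the side chain, differed by -0.91 (adjusted p = 0.00531). Among members chosen after their values were seen, the regulator MYB29 differed by -0.73 (adjusted p = 0.0333) and CYP83A1, the next core enzyme after CYP79F1, by -0.61 (adjusted p = 0.0274). BCAT4, whose product is KMBA and which was likewise chosen after its values were seen, had 4.70, 4.20 and 2.95 FPKM with ACC, against 6.11, 7.04 and 7.26 FPKM with KMBA, so that every ACC library lay below every KMBA library (-0.67, adjusted p = 0.0359). The number of called falls ran from 2 without ACC replicate 2 or KMBA replicate 3 to 4 without ACC replicate 1 or KMBA replicate 1, and was 1 with a pseudocount of 5 and 7 with one of 0.1. GTR1, a glucosinolate transporter chosen after its values were seen, had 15.3, 17.5 and 14.1 FPKM with ACC, against 39.4, 40.1 and 31.7 FPKM with KMBA (-1.20, adjusted p = 0.00531).

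Indolic glucosinolates, made from tryptophan, gave 2 rises and 1 fall among 15 tested genes of 17 listed, against 0.877% and 0.336% of all genes, with a median of 0.01. CYP79B3, which makes the oxime from tryptophan, had 12.2, 13.2 and 8.03 FPKM with ACC, against 28.2, 24.3 and 28.3 FPKM with KMBA (-1.23, adjusted p = 0.00938). Both rises were modifying enzymes. CYP81F2, which hydroxylates the indole ring and is needed for pattern-triggered callose, had 4.93, 3.70 and 2.60 FPKM with ACC, against 0.855, 1.29 and 1.43 FPKM with KMBA (1.10, adjusted p = 0.018). IGMT2, which methylates the product of CYP81F2 and was chosen after its values were seen, had 15.9, 7.08 and 3.12 FPKM with ACC, against 1.15, 1.30 and 0.665 FPKM with KMBA (2.03, adjusted p = 0.0353), with a wide spread among the ACC libraries. IGMT2 lies in a tandem family of near-identical copies, so its value is uncertain. The list held no rise without ACC replicate 2, KMBA replicate 1 or KMBA replicate 2, without the filter on low values or with a filter of 5 FPKM, no call at all with a pseudocount of 5, and 1 rise without ACC replicate 1 or KMBA replicate 3. MYB51, a regulator of the pathway, was higher with ACC by 0.86 (adjusted p = 0.0121), under the 2-fold limit.

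Of 9 tested genes of the myrosinase system, whose enzymes break glucosinolates into toxic products, none was called, against 1.21% of all genes, while 1 was higher and 2 were lower at the adjusted p alone, against 4.4% and 1.97%. The higher gene was PYK10, a beta-glucosidase best known from roots, with 6.35, 4.35 and 6.01 FPKM with ACC, against 2.92, 2.97 and 3.76 FPKM with KMBA (0.63, adjusted p = 0.0399). TGG2, a leaf myrosinase, had 69.5, 59.2 and 65.9 FPKM with ACC, against 111, 117 and 128 FPKM with KMBA (-0.86, adjusted p = 0.00597), and BGLU18, a beta-glucosidase of endoplasmic reticulum bodies, had 28.5, 20.3 and 34.2 FPKM with ACC, against 46.3, 51.2 and 60.2 FPKM with KMBA (-0.92, adjusted p = 0.0294). Both were lower under the 2-fold limit, and the list held 1 called fall with median-ratio scaling, without ACC replicate 3 and without KMBA replicate 1. MBP1, a myrosinase-binding protein outside the lists and chosen after its values were seen, had 7.94, 5.75 and 9.21 FPKM with ACC, against 21.4, 21.5 and 19.99 FPKM with KMBA (-1.37, adjusted p = 0.00556). Its neighbour AT1G52000, a jacalin lectin in the RefSeq annotation and 1 of the 12 largest falls, had 19.96, 20.5 and 21.1 FPKM with ACC, against 78.8, 76.8 and 66.02 FPKM with KMBA. The groups were tight and far apart (-1.80, SE 0.10, adjusted p = 0.00098).

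PR1, PR2, PR5 and GRX480 were the salicylate-linked defense genes called higher with ACC. Of 22 tested genes, out of 29 listed, 4 rose and 1 fell, against 0.877% and 0.336% of all genes, and the median difference was 0.36. PR1, the marker protein of systemic acquired resistance, had 4.08, 3.57 and 8.60 FPKM with ACC and was listed at 0 in all 3 KMBA libraries (adjusted p = 0.00452). It reached the filter only through the ACC libraries, so of the 4 rises PR1 could be tested only as a rise, and its difference depends on the pseudocount. PR2, a beta-1,3-glucanase, had 29.7, 26.4 and 25.2 FPKM with ACC, against 0.303, 0.918 and 9.63 FPKM with KMBA. All KMBA values were below the ACC values, but KMBA replicate 3 was far above KMBA replicates 1 and 2, and the call (3.23, SE 0.66, adjusted p = 0.0313) held only in the fit without KMBA replicate 3 among the 6 that left out a library. PR5, a thaumatin-like protein, had 5.23, 8.37 and 4.73 FPKM with ACC, against 1.70, 1.77 and 2.37 FPKM with KMBA (1.24, adjusted p = 0.0121). GRX480, a glutaredoxin that binds TGA factors and links salicylate to the repression of jasmonate genes, had 14.1, 3.69 and 12.5 FPKM with ACC, against 1.24, 0.242 and 0.432 FPKM with KMBA (2.64, SE 0.43, adjusted p = 0.0155).

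WRKY18, a WRKY factor that restrains defense and was chosen after its values were seen, was the fall of the list, with 22.4, 34.9 and 34.8 FPKM with ACC, against 48.8, 74.2 and 72.1 FPKM with KMBA (-1.06, adjusted p = 0.0294), and its call held in 1 of the 6 fits that left out a library. WRKY53 and WRKY33, factors of senescence and of camalexin defense, were higher with ACC by 0.81 (adjusted p = 0.0106) and 0.99 (adjusted p = 0.0132), under the 2-fold limit. The rises numbered 2 without ACC replicate 1, ACC replicate 3 or KMBA replicate 2 or without the filter, and 1 when the spread was estimated over all 4 shoot groups or with a filter of 5 FPKM. The promoter window of PR2, the largest called rise among nuclear genes, is shown because G-box and W-box motifs are where bZIP, bHLH and WRKY factors of these pathways bind. In the 250 bases before its start (TAIR10.1, RefSeq, chr3:21189968-21190217, minus strand, 5′ to 3′) the match to the G-box core CACGTG, 131 to 126 bases before the start, is in capitals.
PR2: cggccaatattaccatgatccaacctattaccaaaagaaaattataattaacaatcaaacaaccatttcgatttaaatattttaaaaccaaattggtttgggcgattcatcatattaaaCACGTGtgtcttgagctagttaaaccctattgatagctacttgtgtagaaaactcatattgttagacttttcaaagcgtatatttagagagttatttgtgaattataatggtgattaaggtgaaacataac
On either strand CACGTG was found in 6.58% of the windows of all 26697 genes with one, and the match is a description of these letters.

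Pattern-triggered immunity, the response to microbial molecules, gave 3 rises and no fall among 14 tested genes of 19 listed, against 0.877% and 0.336% of all genes, and 12 of the 14 differences were positive, beside 62.7% of all differences. FLS2, the receptor of bacterial flagellin, had 21.6, 20.5 and 18.6 FPKM with ACC, against 8.40, 10.4 and 8.11 FPKM with KMBA (1.09, adjusted p = 0.00531). RLP23, which recognises a peptide of microbial NLP proteins, had 7.63, 5.77 and 6.60 FPKM with ACC, against 0.127, 0.849 and 2.09 FPKM with KMBA (2.04, adjusted p = 0.0132). The ACC libraries were alike for both receptors and every KMBA library was lower. PROPEP3, the precursor of a danger peptide, had 1.65, 1.65 and 2.92 FPKM with ACC, against 0, 0.625 and 0.523 FPKM with KMBA (1.16, adjusted p = 0.0241). PROPEP3 reached the filter only through the ACC libraries, so it could be tested only as a rise. WAK1, a wall-associated kinase, was higher by 0.99 (adjusted p = 0.0191) below the 2-fold limit. The rises numbered 2 without ACC replicate 1 or 3, 1 when the spread was estimated over all 4 shoot groups, and none with a pseudocount of 5.

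Among early stress and touch genes, 2 of 19 tested rose and none fell, of 24 listed, against 0.877% and 0.336% of all genes, with a median of 0.47. ZAT12, a zinc finger of oxidative stress, had 17.6, 12.4 and 24.01 FPKM with ACC, against 3.44, 6.41 and 6.36 FPKM with KMBA (1.56, adjusted p = 0.0178). AT3G46080, a C2H2 zinc finger in the RefSeq annotation, had 5.02, 5.18 and 6.32 FPKM with ACC, against 0.160, 1.14 and 0.676 FPKM with KMBA (2.01, adjusted p = 0.00531). Both calls were lost when the spread was estimated over all 4 shoot groups, and the list held 1 rise without ACC replicate 1, with a pseudocount of 5 or without the filter, and 3 without KMBA replicate 1.

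Large rises were also found in genes outside the lists, of several kinds. AT3G15356, a legume lectin in the RefSeq annotation, had 58.2, 40.4 and 21.9 FPKM with ACC, against 4.44, 4.14 and 5.82 FPKM with KMBA. The ACC libraries were spread widely and all were above the KMBA libraries (2.73, SE 0.30, adjusted p = 0.00556). Another legume lectin on the same chromosome, AT3G16530, chosen after its values were seen, had 49.98, 33.8 and 25.3 FPKM with ACC, against 6.62, 6.53 and 9.11 FPKM with KMBA (2.11, adjusted p = 0.00556), with the libraries in the same order in the ACC group. CML37, a calmodulin-like calcium sensor, had 15.7, 8.47 and 26.9 FPKM with ACC, against 0.655, 2.95 and 2.62 FPKM with KMBA (2.51, adjusted p = 0.0183). AT5G10760, an aspartyl protease in the RefSeq annotation, had 18.01, 14.9 and 20.1 FPKM with ACC, against 0.732, 1.21 and 5.98 FPKM with KMBA (2.63, adjusted p = 0.0183), with KMBA replicate 3 again nearest to ACC. AT4G39670, a glycolipid transfer protein in that annotation, had 12.6, 7.44 and 14.99 FPKM with ACC, against 0.136, 2.67 and 1.73 FPKM with KMBA (2.44, adjusted p = 0.0181).

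AT1G15125, a methyltransferase of the S-adenosylmethionine-dependent kind, had 13.02, 22.5 and 11.3 FPKM with ACC, against 1.14, 2.23 and 2.31 FPKM with KMBA (2.49, adjusted p = 0.00531). The largest difference of all, 5.61 for the chloroplast gene ATCG00065, rested on erratic values of 199.6, 120.3 and 203 FPKM with ACC, against 0, 42.2 and 0 FPKM with KMBA, and its call held in 1 of the 6 fits that left out a library. The promoter window of AT3G15356 (TAIR10.1, RefSeq, chr3:5175524-5175773, minus strand, 5′ to 3′) is shown with its match to the W-box TTGACC, which WRKY factors bind, in capitals, 41 to 36 bases before the start.
AT3G15356: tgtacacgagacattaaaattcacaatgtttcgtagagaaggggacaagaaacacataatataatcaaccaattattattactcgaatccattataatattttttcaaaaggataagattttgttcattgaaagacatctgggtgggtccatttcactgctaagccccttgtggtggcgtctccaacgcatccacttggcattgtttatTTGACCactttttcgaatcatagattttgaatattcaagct
TTGACC was found on either strand in 12.2% of the windows of all genes.

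EARLI1, AT4G12490, AZI1 and AT4G12520, genes of the lipid-transfer protein family in 1 stretch of chromosome 4, were called higher with ACC. They were not a fixed list, and the other genes of the stretch are not counted here. EARLI1 (chr4:7406065-7406994 in TAIR10.1) had 6.66, 6.02 and 8.65 FPKM with ACC, against 0.101, 0.384 and 1.83 FPKM with KMBA (2.30, adjusted p = 0.00908), and AT4G12490 (chr4:7409621-7410406) had 7.29, 2.83 and 13.6 FPKM with ACC, against 0.294, 0.192 and 0.207 FPKM with KMBA (2.65, adjusted p = 0.0124). AT4G12490 reached the filter only through the ACC libraries, so it could be tested only as a rise. AZI1, which is needed for defense priming by azelaic acid, and AT4G12520 were chosen after their values were seen. AZI1 (chr4:7401087-7401951) had 9.19, 9.52 and 7.89 FPKM with ACC, against 0.682, 2.00 and 4.40 FPKM with KMBA (1.71, adjusted p = 0.0327), and AT4G12520 (chr4:7420951-7421828) had 5.17, 3.91 and 2.33 FPKM with ACC, against 1.01, 0.355 and 0.810 FPKM with KMBA (1.45, adjusted p = 0.0147). No ACC library overlapped a KMBA library in any of these 4 genes, as in all 184 called genes, so this adds nothing to the calls. The genes are close relatives, so reads may have been shared between them, and the call of AZI1 held in 2 of the 6 fits that left out a library.

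The largest fall was in AT1G66100, a thionin in the RefSeq annotation, with 2.18, 5.32 and 2.63 FPKM with ACC, against 15.7, 17.9 and 30.9 FPKM with KMBA (-2.37, SE 0.30, adjusted p = 0.00773). Thionins are small antimicrobial peptides of leaves. NUDT8, a Nudix hydrolase, had 1.52, 4.71 and 2.52 FPKM with ACC, against 11.3, 12.2 and 21.7 FPKM with KMBA (-2.06, adjusted p = 0.0135), and AT1G66760, a MATE efflux transporter in the RefSeq annotation, had 3.19, 6.06 and 5.60 FPKM with ACC, against 15.2, 20.7 and 28.7 FPKM with KMBA (-1.91, adjusted p = 0.00864). FAMT, a methyltransferase of farnesoic acid, had 8.14, 12.7 and 6.87 FPKM with ACC, against 36.4, 30.4 and 39.9 FPKM with KMBA (-1.87, adjusted p = 0.00556). In each of these genes all ACC libraries were below all KMBA libraries, which was a condition of their choice. The calls held whichever library was left out. AT3G28220, a TRAF-like protein in that annotation, had 2.41, 2.33 and 2.84 FPKM with ACC, against 8.47, 11.3 and 10.6 FPKM with KMBA (-1.65, adjusted p = 0.00232). AT1G53903, which has a near-identical copy, had 1.00, 1.97 and 1.70 FPKM with ACC, against 3.25, 6.97 and 10.98 FPKM with KMBA (-1.55, adjusted p = 0.037), and its call held in 1 of the 6 fits that left out a library.

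For the falls, the windows of AT1G66100 and LOX3 are shown beside those of the rises. That of AT1G66100 (TAIR10.1, RefSeq, chr1:24606723-24606972, minus strand) has in capitals, 219 to 215 bases before the start, the reverse complement of ATGTA, the core reported for EIN3 sites. That of LOX3 (chr1:5977073-5977322, plus strand) has in capitals the W-box TTGACT, 102 to 97 bases before the start.
AT1G66100: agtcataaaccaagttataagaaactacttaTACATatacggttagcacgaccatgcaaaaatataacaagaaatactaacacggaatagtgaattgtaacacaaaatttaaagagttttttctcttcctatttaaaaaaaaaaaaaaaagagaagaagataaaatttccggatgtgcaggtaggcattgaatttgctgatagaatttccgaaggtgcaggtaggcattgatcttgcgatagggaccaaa
LOX3: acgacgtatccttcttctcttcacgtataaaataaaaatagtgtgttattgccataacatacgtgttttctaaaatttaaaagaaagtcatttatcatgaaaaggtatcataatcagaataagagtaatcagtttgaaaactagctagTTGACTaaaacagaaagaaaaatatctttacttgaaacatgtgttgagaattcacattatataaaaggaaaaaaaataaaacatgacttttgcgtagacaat
On either strand ATGTA was found in 52.2% and TTGACT in 19.1% of the windows of all genes, and the GCC-box GCCGCC, which ERFs bind, in 1.85%, so a match to ATGTA is what most windows hold.

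Dehydration and cold protection genes gave 4 rises and 1 fall among 22 tested of 24 listed, against 0.877% and 0.336% of all genes, with a median of 0.25. LTI30, a dehydrin, had 50.5, 45.2 and 95.1 FPKM with ACC, against 11.5, 11.3 and 17.2 FPKM with KMBA. ACC replicate 3 was the highest and no groups overlapped (2.12, SE 0.28, adjusted p = 0.00835). GolS3, a galactinol synthase of the raffinose pathway induced by cold, had 2.55, 2.33 and 4.18 FPKM with ACC, against 0.212, 0.177 and 0.595 FPKM with KMBA (1.58, adjusted p = 0.00597), and DREB2A, a drought transcription factor, had 4.88, 3.07 and 6.84 FPKM with ACC, against 1.40, 1.33 and 1.81 FPKM with KMBA (1.19, adjusted p = 0.0217). GolS3 reached the filter only through the ACC libraries, so it could be tested only as a rise. RD29A, a classical target of DREB factors chosen after its values were seen, had 133, 106 and 194 FPKM with ACC, against 60.7, 41.7 and 68.4 FPKM with KMBA (1.31, adjusted p = 0.0241). RD20, a caleosin of lipid bodies, was the fall, with 3.54, 3.42 and 3.82 FPKM with ACC, against 10.7, 6.53 and 15.2 FPKM with KMBA (-1.30, adjusted p = 0.0236). The rises numbered 1 without ACC replicate 1 and 2 without ACC replicate 3 or KMBA replicate 2, with a pseudocount of 5, without the filter or with a filter of 5 FPKM, and among the 6 fits that left out a library the fall was called only without KMBA replicate 2 or 3. Of 16 tested genes of abscisic acid metabolism and signaling none was called, against 1.21% of all genes. At the adjusted p alone 1, the phosphatase ABI1, was higher under the 2-fold limit (0.66, adjusted p = 0.0124), against 4.4% of all genes. Without ACC replicate 3 that list held 1 called fall.

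Of 23 tested cell wall expansion genes 2 rose and 1 fell, against 0.877% and 0.336% of all genes, with a median of 0.20. XTH19, a xyloglucan endotransglucosylase, had 22.5, 20.5 and 25.1 FPKM with ACC, against 2.97, 5.07 and 5.01 FPKM with KMBA (2.17, SE 0.17, adjusted p = 0.00234), and EXPA1, an expansin, had 67.2, 50.2 and 61.1 FPKM with ACC, against 21.2, 24.9 and 23.9 FPKM with KMBA (1.31, adjusted p = 0.00452). XTH9, of the same enzyme family as XTH19, went the other way, with 49.8, 53.4 and 46.03 FPKM with ACC, against 112, 107 and 116 FPKM with KMBA (-1.16, SE 0.09, adjusted p = 0.00249). XTH6 had 31.7, 48.4 and 53.9 FPKM with ACC, against 52.2, 55.2 and 71.02 FPKM with KMBA and overlapped. HAT1, a homeodomain factor of shade avoidance, was the 1 called gene, a fall, of 10 tested in the shade list (background 0.336%), with 3.59, 7.42 and 7.94 FPKM with ACC, against 16.0, 20.6 and 20.9 FPKM with KMBA (-1.51, adjusted p = 0.0154).

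Glutathione transferases gave 3 rises and 1 fall among 18 tested of 24 listed, against 0.877% and 0.336% of all genes. GSTF2, of the phi class, had 48.7, 51.4 and 64.9 FPKM with ACC, against 18.5, 17.4 and 21.01 FPKM with KMBA (1.48, SE 0.13, adjusted p = 0.00344), and is known to respond to ethylene and salicylate. GSTF6 and GSTF7, adjacent and near-identical, had 74.4, 46.7 and 62.2 FPKM with ACC, against 23.96, 29.1 and 35.9 FPKM with KMBA, and 17.98, 12.4 and 10.9 FPKM with ACC, against 2.64, 5.65 and 7.59 FPKM with KMBA. Reads may have been shared between them, and their calls (adjusted p = 0.0253 and 0.0479) held in 2 and 1 of the 6 fits that left out a library. GSTU5, of the plant-specific tau class, fell, with 201, 325 and 212 FPKM with ACC, against 548, 494 and 688 FPKM with KMBA (-1.25, adjusted p = 0.0156). Without ACC replicate 1, ACC replicate 3, KMBA replicate 1 or KMBA replicate 2 the list held 1 rise, as it did with a pseudocount of 5, without the filter and with the spread estimated over all 4 shoot groups.

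Of 15 tested senescence genes 1 rose and none fell, against 0.877% and 0.336% of all genes, and no gene was called without ACC replicate 1, without the filter or with the spread estimated over all 4 shoot groups. The rise was SAG21, a small mitochondrial LEA protein, with 119, 124 and 93.9 FPKM with ACC, against 27.3, 44.2 and 60.98 FPKM with KMBA (1.39, adjusted p = 0.0238). ORE1, the NAC factor through which ethylene promotes leaf ageing, had 1.21, 1.81 and 1.48 FPKM with ACC, against 0.222, 0.258 and 0.258 FPKM with KMBA, a difference of 0.997 just under the 2-fold limit (adjusted p = 0.00531). Of 26 tested genes of reactive oxygen and the glutathione cycle 1 rose, OM66, an AAA protein of the outer mitochondrial membrane, with 19.7, 15.4 and 25.9 FPKM with ACC, against 5.93, 7.85 and 10.2 FPKM with KMBA (1.25, adjusted p = 0.0188), against 0.877% of all genes. This list held no call with a pseudocount of 5, without the filter or with the spread estimated over all 4 shoot groups. DHAR1, a dehydroascorbate reductase, was lower with ACC below the 2-fold limit (-0.83, adjusted p = 0.0182).

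Methionine and S-adenosylmethionine genes, which lie between KMBA and ethylene, held no call and no gene past the adjusted p, against 1.21% and 6.37% of all genes. All 17 listed genes were tested, and the differences ran from -0.60 to 0.55 with a median of 0.11. MS1, a methionine synthase, had 141, 117 and 117 FPKM with ACC, against 99.9, 100.4 and 91.98 FPKM with KMBA, and the 95% interval of the difference ran from 0.11 to 0.60 on the log2 scale. MAT4, an S-adenosylmethionine synthetase among the most abundant transcripts named here, had 1201, 1241 and 1251 FPKM with ACC, against 910.3, 1144 and 992 FPKM with KMBA (0.02 to 0.55). SAHH2, which recycles the methyl donor, differed by 0.55 (0.21 to 0.89), HMT3, which makes methionine from S-methylmethionine, by -0.60 (-0.95 to -0.24), and MGL, which breaks methionine down, by -0.57 (-1.20 to 0.06). The groups did not overlap in 9 of the 17 genes, MS1, MAT4, SAHH2 and HMT3 among them, against 32.0% of all tested genes. The 8 tested genes of methionine salvage, the cycle in which KMBA is the last intermediate, differed by -0.25 to 0.25, with MTI1 at -0.25 (-0.49 to -0.01) and ARD2 at 0.25 (0.00 to 0.51) as the widest.

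Sulfate uptake and assimilation gave 1 fall among 26 tested genes of 35 listed, against 0.336% of all genes, with a median of -0.21. APS3, an ATP sulfurylase chosen after its values were seen, had 11.3, 17.5 and 7.06 FPKM with ACC, against 23.9, 24.4 and 26.6 FPKM with KMBA (-1.08, adjusted p = 0.0479), and the call held in 1 of the 6 fits that left out a library and was lost with pool as a covariate, with a pseudocount of 0.1 or 5 and without the filter. APK1 and APK2, kinases that make the sulfate donor used in glucosinolate synthesis, had 6.30, 5.38 and 4.34 FPKM with ACC, against 9.32, 9.03 and 12.2 FPKM with KMBA, and 13.4, 11.8 and 9.96 FPKM with ACC, against 19.2, 18.5 and 20.6 FPKM with KMBA. With FRY1, the phosphatase that clears the by-product of sulfation, they were lower with ACC under the 2-fold limit, with differences of -0.82, -0.69 and -0.55 on the log2 scale, at adjusted p of 0.0221, 0.0175 and 0.0306. SULTR3;3, a sulfate transporter, and SERAT2;1, which makes the precursor of cysteine, were higher with ACC by 0.73 and 0.70, also under that limit (adjusted p = 0.0121 and 0.0147). The main uptake transporter SULTR1;2 had 3.48, 5.26 and 5.65 FPKM with ACC, against 3.16, 5.21 and 5.38 FPKM with KMBA, with overlap and an interval of -0.41 to 0.53, and the reductase APR2 differed by -0.49 (-0.92 to -0.06).

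Sulfur deficiency genes did not pass the test between the compounds. Of 8 tested genes none passed the adjusted p, against 6.37% of all genes, so a list of this size may hold none by that share alone. In none of the 8 were the groups free of overlap, against 32.0% of all tested genes. Of the 8 differences 7 were negative (median -0.49), whereas 62.7% of all differences were positive. With pool as a covariate, 1 gene of the list was called lower and the median was -0.68, so the absence of a call depended on the fit. LSU1, a small protein induced by sulfur shortage, had 2.95, 8.95 and 8.63 FPKM with ACC, against 12.1, 8.61 and 16.5 FPKM with KMBA, and LSU3 had 2.42, 17.03 and 7.48 FPKM with ACC, against 15.7, 13.6 and 22.1 FPKM with KMBA. ACC replicate 1 was the lowest library for both and ACC replicate 2 lay among the KMBA libraries. The 95% intervals ran from -1.68 to -0.01 for LSU1, from -1.03 to 0.19 for LSU2, from -2.32 to 0.04 for LSU3 and from -1.71 to -0.04 for SDI1, a repressor of glucosinolate synthesis.

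Of 30 tested photosystem and electron transport subunits encoded in the nucleus none was called, and 2 were lower at the adjusted p alone, against 1.97% of all genes. In 28 of the 30 the difference was negative, whereas 62.7% of all differences were positive, and the list median was -0.20, with no test of the list. PSBQ2, a subunit of the oxygen-evolving complex, had 292, 321 and 268 FPKM with ACC, against 470.3, 433 and 438 FPKM with KMBA (-0.61, adjusted p = 0.0183), and PSAN, a subunit of photosystem I, had 425, 452 and 409.5 FPKM with ACC, against 661, 611 and 749 FPKM with KMBA (-0.65, adjusted p = 0.0182). These were the 2 genes of the list past the adjusted p. LQY1, a chaperone of photosystem II repair, differed by -0.47 (-0.90 to -0.03). The antenna (18 tested), Rubisco and Calvin cycle (19), clock (14), flavonol and anthocyanin (16), heat shock (12), iron (14), phosphate (7), nitrate (23), aquaporin (16), ion transport (8), hypoxia (8), auxin (18), cytokinin (6), cellulose synthase (8) and cell division (13) lists also held no called gene. The share of called genes over all genes was 1.21%, so lists of this size hold few or none by the background alone. At the adjusted p alone, 4 auxin and 3 nitrate genes were higher and 1 nitrate gene lower, against 4.4% and 1.97% of all genes. The iron, aquaporin, ion transport, hypoxia and cytokinin lists each held 1 higher gene at that threshold. Some alternatives gave calls, such as 2 iron rises and 1 cytokinin rise with pool as a covariate, and 1 iron and 1 heat shock rise with the replicate block. Among epidermal markers CHAT, an acyltransferase of green leaf volatiles, was lower under the 2-fold limit (-0.74, adjusted p = 0.0313) and DCF, a cutin enzyme, differed by -0.29 (-0.49 to -0.09). The 10 reference genes, ACT2 and UBQ10 among them, had a median difference of 0.07, equal to that of all genes. In 9 of the 10 the difference was positive, and 1 was higher with ACC at the adjusted p alone, against 4.4% of all genes. Their summed levels were 1591, 1506 and 1499 FPKM with ACC, against 1259, 1222 and 1219 FPKM with KMBA, so the sums did not overlap.

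Of the 71 named genes that were called, 33 were called in all 6 fits that left out a library. PR1, AT4G12490, ETR2, ORA59, TAT3 and GolS3 were called in the 3 fits that left out a KMBA library and were not tested in the others. EBF2 was just under the 2-fold limit without ACC replicate 2 (0.98), as were JAZ1 without ACC replicate 1 (0.90) and PROPEP3 without KMBA replicate 1 (0.94), and PROPEP3 was not tested without an ACC library. CML37 and ZAT12 were lost without ACC replicate 1 (adjusted p = 0.0536 and 0.0511), and GRX480 and HAT1 without KMBA replicate 2 (adjusted p = 0.0541 and 0.0543). ARL, RD29A and OM66 were lost without ACC replicate 1 or KMBA replicate 2, AT4G39670 without ACC replicate 1 or 3, and GSTF11 without ACC replicate 2 or KMBA replicate 3. In 2 or 3 fits AT5G10760, SAG21, ILL6, CYP81F2, IGMT2, RD20, DREB2A, GSTF6 and AZI1 kept their calls, and in 1 fit ATCG00065, PR2, AOC1, AT1G53903, ERF2, APS3, AOS, JAZ9, IAR3, WRKY18 and GSTF7. Over these fits the highest adjusted p of each gene in the last group ran up to 0.124, for APS3, and no call changed direction.

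Each sequencing pool gave the same direction for all 184 called genes, which follows from the lack of overlap between the groups. In pool 1 (ACC replicate 1 against KMBA replicates 1 and 2) and pool 3 (ACC replicates 2 and 3 against KMBA replicate 3) the log2 differences were 0.95 and 1.18 for EBF2, 1.95 and 1.54 for PR4, -2.07 and -2.33 for LOX3, and -1.12 and -1.22 for XTH9. The pools were less alike for PR2 (4.28 and 1.33), AT5G10760 (3.28 and 1.39), RLP23 (2.58 and 1.21), SAG21 (1.74 and 0.81) and CYP79F1 (-0.97 and -1.99). With 1 library of a compound in each pool, no test within a pool was made. With pool as a covariate 214 genes were called, 168 of them among the 184.

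Set beside the other shoot groups, without a test, the genes fell into different orders. All SA187 and WT shoot libraries were sequenced in pool 1, unlike those of the compounds. The WT libraries had depths of 0.435, 0.374 and 0.387 of that of KMBA replicate 2, so pool and depth differ between the groups. In EBF2 the means were 54.4 ± 8.27 FPKM with ACC and 24.8 ± 1.35 FPKM with KMBA, beside 20.1 ± 1.45 FPKM with SA187 and 19.0 ± 0.664 FPKM in WT (SD, n = 3 each). The ACC mean was far above the others, and the KMBA mean was above those of SA187 and WT by more than their SDs. PR4 had 14.5 ± 0.261 FPKM with ACC and 3.43 ± 0.867 FPKM with KMBA, beside 6.40 ± 3.95 FPKM with SA187 and 7.36 ± 4.35 FPKM in WT. In LOX3 the means were 9.93 ± 3.04 FPKM with ACC and 46.7 ± 12 FPKM with KMBA, beside 50.2 ± 6.16 FPKM with SA187 and 16.3 ± 12.5 FPKM in WT, so KMBA and SA187 lay together and ACC near WT. For AT1G52000 ACC stood alone, with 20.5 ± 0.582 FPKM with ACC and 73.9 ± 6.88 FPKM with KMBA, beside 74.9 ± 6.09 FPKM with SA187 and 75.3 ± 23.2 FPKM in WT. For GTR1, WT was highest, with 15.6 ± 1.73 FPKM with ACC and 37.1 ± 4.68 FPKM with KMBA, beside 52.0 ± 8.13 FPKM with SA187 and 73.7 ± 19.8 FPKM in WT. The WT libraries were spread widely in the defense genes. PR2 was 22.7, 0.524 and 93.9 FPKM in WT replicates 1, 2 and 3, a range that takes in both compounds.

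**Figure D4:**
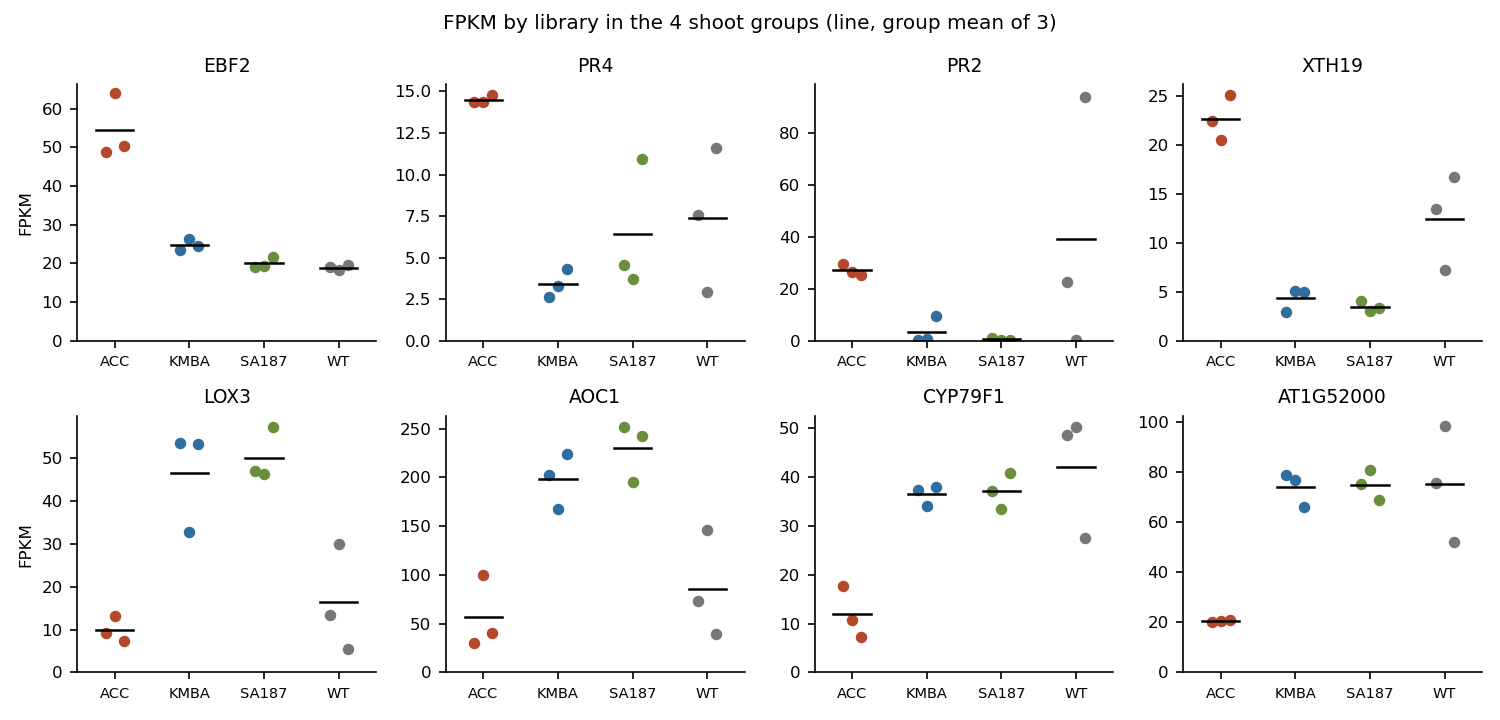
FPKM, on axes that start at 0, of 8 called genes in the 4 shoot groups, ACC, KMBA, SA187 and WT from left to right, 1 point per library and a line at each group mean. EBF2 and AT1G52000 have ACC apart from the other 3 groups, LOX3 and AOC1 have ACC and WT low and KMBA and SA187 high, and the WT libraries of PR2 and XTH19 are spread widely.

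Roots of the same treatments were compared gene by gene with the shoots. Each root group had a sequencing pool of its own, so compound and pool cannot be told apart there. In PR4, EBF2 and XTH9 the compounds differed in roots in the same direction. PR4 had a mean of 1560 FPKM in ACC roots and 383 FPKM in KMBA roots, EBF2 71.3 FPKM in ACC roots and 30.3 FPKM in KMBA roots, and XTH9 31.4 FPKM in ACC roots and 68.6 FPKM in KMBA roots (n = 3 each). In these genes the shoot difference minus the root difference was -0.20, -0.11 and -0.04 on the log2 scale, with standard errors of 0.22, 0.15 and 0.16, and did not pass the test of the interaction. In others it passed, for example GRX480, with 5.06 FPKM in ACC roots and 10.1 FPKM in KMBA roots and a difference between the organs of 3.50 (adjusted p = 0.00148), and LTI30, with 345 FPKM in ACC roots and 372 FPKM in KMBA roots (2.23, adjusted p = 0.00177). For LOX3, FAMT and AT3G28220 the root means were at or below 0.255 FPKM in both groups, so in roots there was next to no transcript to compare. Over all 18357 genes tested in both organs, 1895 (10.3%) passed the interaction test, and of the 135 genes named here, chosen mostly for their difference in shoots, 73 did.

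**Figure D5:**
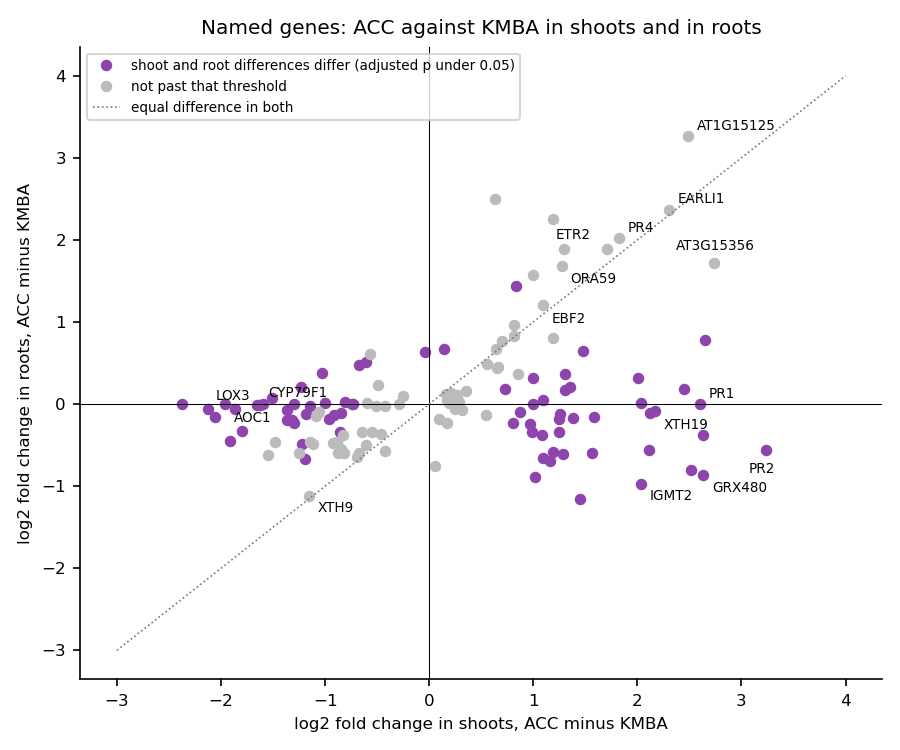
Difference between ACC and KMBA in shoots (horizontal axis) against that in roots (vertical axis), on the log2 scale, for the named genes except ATCG00065, coloured by whether the organs differed in the interaction test, with a dotted line of equal difference. PR4, EBF2 and XTH9 lie near the dotted line, while LOX3 and AOC1 lie near 0 in roots and GRX480 lies below 0 in roots. The point of PYK10 (0.63 in shoots, 2.50 in roots) includes a KMBA root library in which the gene is listed at 0.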

How the data were processed

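The members of this comparison and the 47 gene lists (892 genes) were chosen with earlier results of these data known. The deposited values are FPKM, 1 per gene and library, which the authors made with TopHat and Cufflinks 2.2.1 on TAIR10 after trimming. The deposited values hold no read totals, and neither the labels nor the methods state strand use for these shoot and root libraries. Samples were grouped by their labels.

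The fit (limma 3.58.1 run in R 4.3.3, eBayes with a trend) took log2(FPKM + 1) of the genes that reached 1 FPKM in 3 or more of the 6 libraries. The pseudocount makes fold changes of low genes too small. The shoot-root difference was an interaction term over 12 libraries. Each p-value sets the difference between the groups against the spread between the deposited replicates, moderated across genes. The fit was tested on simulated data.

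Named genes were the 12 largest rises and 12 largest falls that did not overlap and reached a mean of 5 FPKM, members of 5 lists (ethylene synthesis and signaling, methionine, its salvage, sulfur deficiency), up to 4 of lowest p from each other list, and the study's plant genes, and 1 result is not reported here. The 26 others are ERF1A, ERF2, EDF3, ARL, APS3, MYB29, CYP83A1, BCAT4, IGMT2, LOX2, AOS, AOC2, AOC3, JAR1, JAZ1, JAZ9, VSP2, IAR3, ILL6, WRKY18, RD29A, GTR1, MBP1, AZI1, AT4G12520 and AT3G16530, chosen after their values were seen. Names and coordinates came from TAIR10.1 by locus ID (26703 of 27371 matched). Alternatives were other pseudocounts, filters, scaling, sample sets, covariates, a replicate block and each library left out. Figures used matplotlib 3.10.9.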

Additional observations from a re-analysis of the deposited data

Results flagged for a closer look

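Of the 135 named genes, 73 differed between the compounds otherwise in shoots than in roots, by the interaction term of a limma fit over the 12 ACC and KMBA libraries (adjusted p under 0.05 over 18357 genes, of which 1895, 10.3%, passed). Named genes were chosen mostly for their difference in shoots, so their share is not to be read against that background. Each root group had its own sequencing pool, so compound and pool cannot be told apart in roots. Each value below is the log2 difference, ACC minus KMBA, in shoots minus that in roots. PR1, AT1G66100, MYB29 and CHAT were listed at 0 in all 6 root libraries, and PR1 also in the 3 KMBA shoot libraries, so these values depend on the pseudocount. Ethylene synthesis, signaling and response gave 1.22 for ACS2, -0.68 for ACO4, -0.53 for RTE1, 0.67 for ERF4, -0.60 for RAP2.3 and 0.98 for ERF1A. Jasmonate synthesis gave -2.07 for LOX3, -1.06 for LOX4, -0.74 for LOX2, -1.07 for AOS, -1.97 for AOC1, -1.61 for OPR3, -0.84 for OPCL1 and -1.12 for JAR1. Jasmonate signaling and turnover gave 1.46 for JAZ1, -0.78 for JAZ7, 1.15 for JAV1, 1.37 for TAT3, -1.12 for IAR3 and -1.18 for ILL6. Salicylate-linked defense gave 2.60 for PR1, 3.79 for PR2, 1.58 for PR5, 3.50 for GRX480, 1.04 for WRKY53 and 0.99 for WRKY33. Pattern-triggered immunity and early stress gave 1.05 for FLS2, 2.02 for RLP23, 1.85 for PROPEP3, 1.32 for WAK1, 1.69 for AT3G46080 and 2.16 for ZAT12. Aliphatic glucosinolates and their transport gave -1.15 for BCAT4, -1.02 for BAT5, -1.43 for IPMI-SSU3, -1.61 for CYP79F1, -1.13 for CYP83A1, -1.41 for GSTF11, -0.79 for FMOGS-OX3, -0.73 for MYB29 and -0.53 for GTR1. Indolic glucosinolates and the myrosinase system gave -0.74 for CYP79B3, 1.75 for CYP81F2, 3.00 for IGMT2, -0.53 for TGG2 and -1.30 for MBP1. Dehydration protection and sulfate transport gave 2.23 for LTI30, 1.75 for GolS3, 1.78 for DREB2A, 1.14 for RD29A, -1.29 for RD20 and 0.54 for SULTR3;3. Cell wall, shade and leaf surface genes gave 2.25 for XTH19, 0.94 for EXPA1, -1.59 for HAT1 and -0.74 for CHAT. Glutathione transferases, senescence and mitochondrial stress gave 0.84 for GSTF2, 1.90 for GSTF6, 1.89 for GSTF7, 1.56 for SAG21 and 1.43 for OM66. Other genes that rose in shoots gave 1.87 for AT4G12490, 2.61 for AT4G12520, 3.01 for AT5G10760, 3.31 for CML37, 2.26 for AT4G39670 and 2.67 for AT3G16530. Other genes that fell in shoots gave -2.37 for AT1G66100, -1.90 for NUDT8, -1.46 for AT1G66760, -1.81 for FAMT, -1.47 for AT1G52000 and -1.64 for AT3G28220.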

How the results depend on the processing

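FPKM without read totals limits how far a low gene can be trusted, and 3 libraries per compound limit the spread estimate. The 184 genes (133 higher, 51 lower) became 296 (211 and 85) with a pseudocount of 0.1, 56 (38 and 18) with a pseudocount of 5, 105 (73 and 32) without the filter on low values and 114 (69 and 45) with a filter of 5 FPKM, and with the spread taken from all 4 shoot groups 125 (79 higher). The cause of these shifts was not tested, apart from the 73 of the 184 that the higher filter left untested. Leaving out each library gave 109 to 170 genes, 70 to 132 higher and 35 to 61 lower, and 23 of the 184 were not tested once an ACC library was left out. Median-ratio scaling moved the median difference of all genes from 0.065 to -0.006 and gave 180 genes, of which 62.8% were higher with ACC, against 72.3%. Deviations of libraries with the same number correlated at 0.198, -0.075 and 0.142, and those of libraries with different numbers at -0.23 to 0.14. The main fit did not take replicate numbers as pairs. With the replicate block 209 genes were called, 180 of them among the 184, and 1057 genes passed the adjusted p alone, against 966.

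Named genes near 0 changed sign. Over the fits without 1 library ACO4 ran from -0.12 to 0.02 (0.02 without ACC replicate 1 and without KMBA replicate 3) and AOC3 from -0.02 (without ACC replicate 1) to 0.35. SULTR1;2 ran from -0.14 (without KMBA replicate 1) to 0.24, with -0.01 and -0.05 without ACC replicates 2 and 3, and was -0.01 with median-ratio scaling, -0.08 with pool as a covariate and -0.00 with length and GC trends removed, where EBF1 was -0.03. None of these passed the test in any of those fits.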
